A study of Mus musculus with 20 samples.

Results

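The 9 genes described here encode complement components and the receptors for their anaphylatoxin fragments: C1qa, C1qb, C1qc, C2, C3, C4b, Cfb, C3ar1 and C5ar1. They were chosen by name from the 25219 genes of the deposited table, and all 9 were found there and passed the filter on low counts in both tissues. RNA-seq was made of inguinal white adipose tissue (iWAT) and brown adipose tissue (BAT) of male mice, with 5 libraries of each genotype in each tissue. Ai-α4KO mice carried floxed alleles of α4 (Igbp1), a regulatory subunit of protein phosphatases, and a tamoxifen-inducible Cre recombinase driven by the Adiponectin promoter (Adiponectin-CreERT2), so that the gene was deleted in mature adipocytes. Control mice carried the floxed alleles without the transgene according to the study's methods, while the labels call them WT. Both genotypes, on a mixed C57Bl/6 background, were given tamoxifen at 100 mg/kg in 5 injections spread over 6 days from the age of 2 months, and RNA was taken 1 week after recombination. The labels do not say whether a library is 1 mouse or a pool, nor whether the same mice gave both tissues, so the p-values measure only the spread between these libraries, which may be technical.

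Complement is a cascade of serum and cell surface proteins. C1q binds antibody, dying cells and other targets and starts the classical pathway, in which the proteases C1r and C1s cleave C4 and C2 to form a C3 convertase. The alternative pathway builds its own convertase from C3b and factor B, which is cut by factor D (adipsin), a protease that adipocytes secrete in large amounts. Both pathways meet at C3, whose cleavage product C3a, like C5a further down, is an anaphylatoxin that calls in and activates myeloid cells through the receptors C3ar1 and C5ar1. In most tissues C1q comes mainly from macrophages and dendritic cells, whereas C3, C4 and factor B are also made by parenchymal and stromal cells.

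In the mm10 coordinates of the deposited table the C1q chain genes lie next to each other on the minus strand of chromosome 4: C1qb from 136880145 to 136886177, C1qc from 136889802 to 136892914 and C1qa from 136895916 to 136898844, with 3624 and 3001 bases between neighbours. C4b (34728381 to 34743897), Cfb (34856374 to 34862514) and C2 (34862602 to 34882100) lie on the minus strand of chromosome 17, where only 87 bases separate Cfb from C2. C3 lies farther along chromosome 17, from 57203973 to 57228136. C3ar1 lies on chromosome 6 from 122847140 to 122856157 and C5ar1 on chromosome 7 from 16246743 to 16259540, both on the minus strand. RefSeq promoter sequences (GRCm38.p6) were given for 5 of the 9 genes, and the window of C1qc fell in a transcribed exon. The 120 bases before the transcription start of the remaining genes with a sequence are printed below, on the minus strand and 5′ to 3′. They are those available and were not chosen by their change. Of these genes, C1qb, C3ar1 and C5ar1 were higher in Ai-α4KO mice in both tissues and C3 was not.
C1qb, chr4:136886201-136886320: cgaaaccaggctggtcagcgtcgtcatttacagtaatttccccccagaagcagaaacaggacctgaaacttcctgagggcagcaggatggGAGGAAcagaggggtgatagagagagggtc
C3ar1, chr6:122856158-122856277: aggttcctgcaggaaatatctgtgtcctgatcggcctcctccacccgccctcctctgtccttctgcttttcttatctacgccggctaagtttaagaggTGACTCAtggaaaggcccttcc
C5ar1, chr7:16259339-16259458: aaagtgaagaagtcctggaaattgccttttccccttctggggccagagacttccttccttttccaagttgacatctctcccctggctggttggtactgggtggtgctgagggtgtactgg
C3, chr17:57228137-57228256: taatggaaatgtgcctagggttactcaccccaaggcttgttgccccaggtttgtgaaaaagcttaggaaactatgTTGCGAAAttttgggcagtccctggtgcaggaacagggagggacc
The capitals mark matches, on either strand, to 6 motifs: the ETS core GAGGAA, TTGCNNAA of C/EBP factors, TGANTCA of AP-1, TATAAA, the kappaB motif and the gamma-interferon site TTCNNNGAA. The C1qb window held GAGGAA from 30 bases before the start, and 11.6% of 32851 promoter windows of the same length hold that motif. The C3ar1 window held TGACTCA, a match to the AP-1 motif, from 22 bases before the start (3.41% of all windows). The C3 window held TTGCGAAA, a match to the C/EBP motif, from 45 bases before the start (4.15% of all windows). No window printed here held TATAAA (6.34% of all windows), the kappaB motif (3.65%) or the gamma-interferon site (3.15%), and the C5ar1 window, which lies within the span the deposited table gives for that gene, held none of the 6. A match is a description of the letters and not a measured binding site.

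All 20 libraries were used, with 24023309 to 50384427 counts each. Igbp1 was below the Control range in every Ai-α4KO library, at 57.5 to 76.6 CPM in Control and 10.1 to 11.1 CPM in Ai-α4KO iWAT, and at 85.3 to 105 CPM and 13.7 to 25.2 CPM in BAT. CPM is the read count relative to the library's total, after that total was scaled by its TMM factor over the 20 libraries. The summed level of 6 brown adipocyte markers was 8298 to 12692 CPM in Control BAT and 134 to 994 CPM in Control iWAT, and that of 8 adipocyte markers was between 11593 and 30138 CPM in all 20. Some iWAT libraries stood apart. Control libraries 1 and 4 had 435 and 168 CPM of 6 B cell markers against at most 13.4 CPM in any other iWAT library, and Control library 4 and Ai-α4KO library 1 had 6622 and 5031 CPM of 7 skeletal muscle markers against at most 171 CPM. In BAT the muscle markers were at 825 to 8823 CPM in Control and 12137 to 39144 CPM in Ai-α4KO libraries, without overlap, and their part in the results on BAT was not tested.

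The effect of α4 loss was examined by comparing Ai-α4KO with Control within each tissue. Changed genes were those with a fold change of 2 or more and an adjusted p below 0.01 (quasi-likelihood test of edgeR, Benjamini-Hochberg over all genes tested). In iWAT 6 of the 9 genes rose (C1qa, C1qb, C1qc, Cfb, C3ar1 and C5ar1) and 0 fell, where 11.3% of all 14604 tested genes were higher and 10.7% lower. In BAT 8 of the 9 rose and 0 fell, where 18.2% of 14344 tested genes were higher and 13.3% lower, and C3 was the gene that did not pass. The median log2 fold change of the 9 genes was 1.37 in iWAT and 3.27 in BAT, beside 0.01 and -0.03 over all genes tested. Every Ai-α4KO library lay above every Control library for 6 of the 9 genes in iWAT and 8 of the 9 in BAT, as did 20.7% and 24.7% of all genes tested. The count in iWAT was also 6 without Control libraries 1 and 4, and without Control library 4 and Ai-α4KO library 1. Tissue RNA cannot tell more cells of a type from more RNA per cell.

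**Figure D1:**
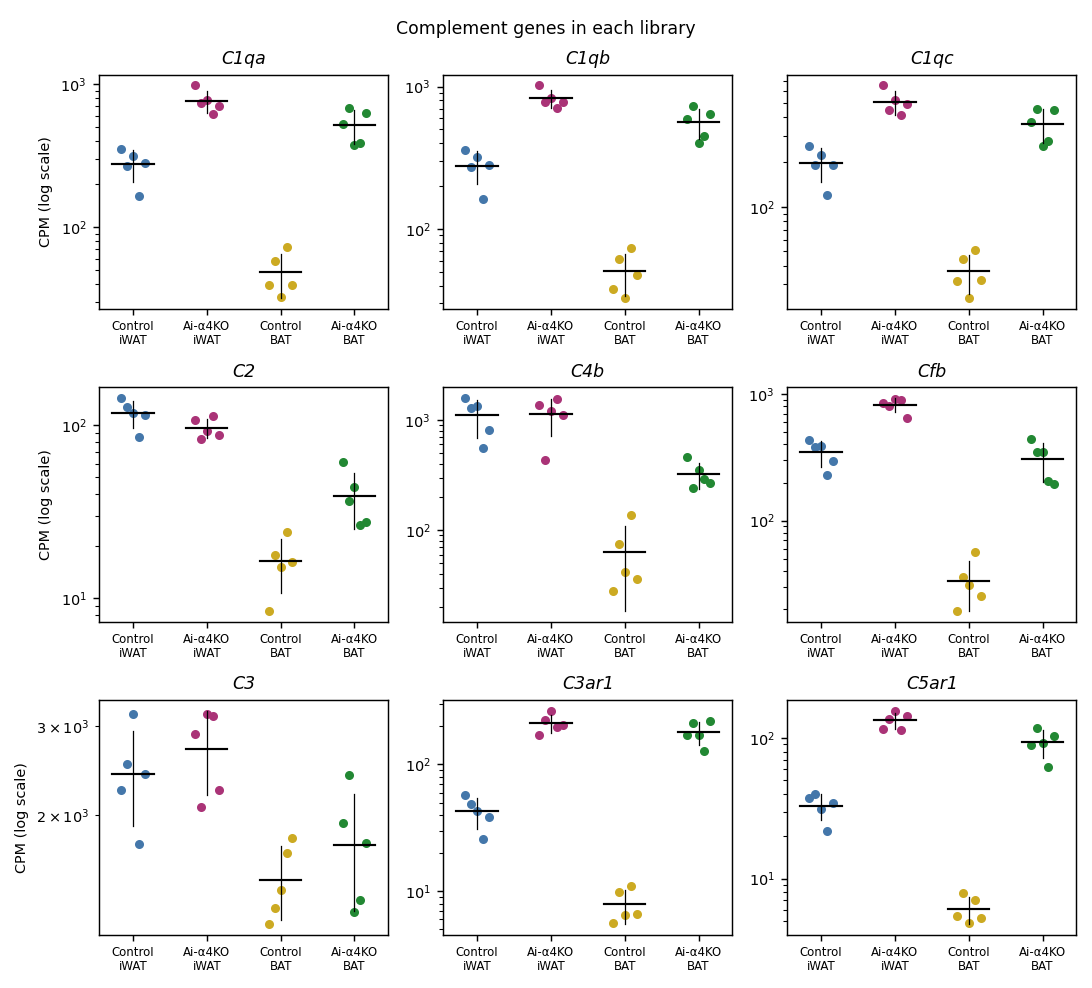
CPM of each of the 9 genes in each of the 20 libraries, on a log axis whose range differs between panels. Points are libraries, horizontal bars are means and vertical bars are SDs (n = 5), and in BAT the Ai-α4KO libraries lie above the Control libraries for every gene except C3, while in iWAT C2, C4b and C3 overlap.

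The recognition molecule of the classical pathway, C1q, is assembled from the chains encoded by C1qa, C1qb and C1qc. In iWAT, C1qa was at 354, 266, 314, 165 and 282 CPM in Control libraries 1 to 5 and at 985, 733, 781, 623 and 709 CPM in Ai-α4KO libraries 1 to 5. In BAT it was at 39.3, 57.5, 32.3, 72.6 and 39.4 CPM in Control and at 527, 683, 375, 388 and 628 CPM in Ai-α4KO libraries. The genotypes did not overlap in either tissue, Control library 4 being the lowest in iWAT and the highest of its group in BAT. On the log2 scale C1qa rose by 1.47 in iWAT (standard error 0.20, adjusted p = 1.04e-04 in edgeR) and by 3.40 in BAT (standard error 0.26, adjusted p = 5.58e-07). The other chains followed the same course. C1qb went from 279 ± 73.4 to 824 ± 119.7 CPM in iWAT and from 50.5 ± 16.7 to 564 ± 135 CPM in BAT (SD, n = 5 each), log2 fold changes of 1.56 and 3.45. C1qc went from 197 ± 50.8 to 509 ± 93.9 CPM in iWAT and from 36.7 ± 10.8 to 362 ± 92.6 CPM in BAT (SD, n = 5 each), log2 fold changes of 1.37 and 3.27. Adjusted p-values of C1qb and C1qc lay between 3.94e-07 and 1.72e-04 in edgeR's test.

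The levels of the chains kept a narrow ratio. On the FPKM scale, which divides by transcript length and so allows genes to be compared, C1qa was at 0.812 to 1.02 times C1qb over the 20 libraries and C1qc at 0.581 to 0.844 times C1qb. For iWAT, C1qa per C1qb was 0.975 ± 0.020 in Control against 0.910 ± 0.031 in Ai-α4KO libraries (SD, n = 5 each), and for BAT 0.940 ± 0.081 against 0.902 ± 0.043. C1qc per C1qb was 0.714 ± 0.023 in Control against 0.620 ± 0.030 in Ai-α4KO for iWAT, and 0.741 ± 0.063 and 0.646 ± 0.031 in BAT (SD, n = 5 each). Both ratios were lower in each Ai-α4KO iWAT library than in any Control iWAT library, and in BAT the genotypes overlapped. Across the 20 libraries the log2 CPM of the chains had Pearson's r of 0.999 for each pair, a description in which the 4 groups of tissue and genotype set most of the spread.

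**Figure D2:**
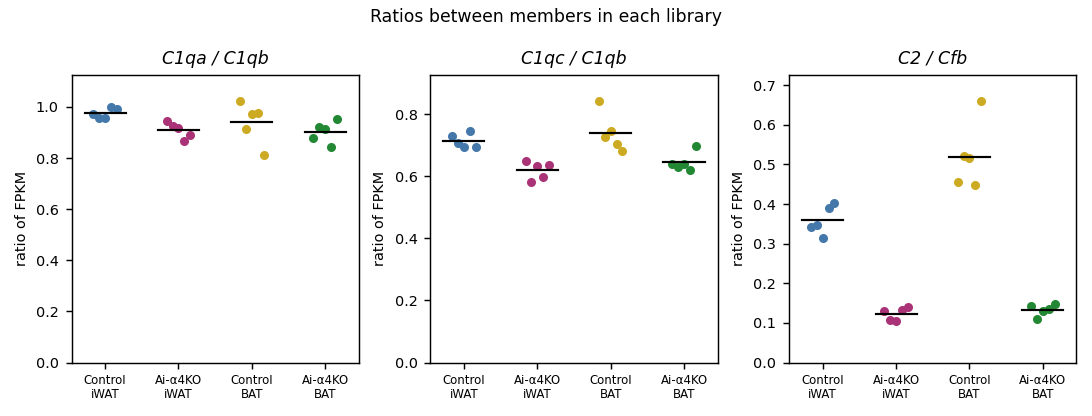
Ratios of FPKM between C1q chains and between C2 and Cfb in each library, with axes starting at 0; points are libraries and bars are group means (n = 5). The chain ratios span 0.581 to 1.02 over all libraries, while C2 per Cfb lies at 0.315 to 0.661 in Control and 0.105 to 0.148 in Ai-α4KO libraries.

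C4 and C2 supply the parts of the classical C3 convertase, and both differed from the C1q chains in iWAT. C4b was at 1576, 1289, 1328, 550.4 and 807 CPM in Control iWAT libraries 1 to 5 and at 1353, 432, 1209.8, 1555 and 1118 CPM in Ai-α4KO iWAT. The genotypes overlapped almost entirely, and the library with the least C4b, Ai-α4KO library 2, also had the smallest sum of 6 adipose stromal cell markers in iWAT (1262 CPM against 1327 to 3325 CPM in the others). In iWAT its log2 fold change was 0.02 (95% interval -0.74 to 0.79, adjusted p = 0.958 in edgeR), and -0.091 without Control libraries 1 and 4. In BAT, C4b was at 27.9, 74.9, 42, 138 and 35.9 CPM in Control and at 461, 242, 353, 289 and 269.9 CPM in Ai-α4KO libraries. The genotypes were apart in BAT, where Control library 4 was the highest of its group, and C4b rose by 2.30 (standard error 0.40, adjusted p = 3.38e-04 in edgeR). C4a, a close copy of C4b, took 0.595% to 2.59% of the counts of both genes in a library. Of the 150-base windows of the C4b transcript, 8.26% also occur in C4a (GENCODE M21), so that a share of reads cannot be assigned by sequence. With the counts of the copies added, the numbers of changed genes were the same in both tissues.

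C2, the protease of the classical convertase, was at 144, 127, 117, 85.9 and 115 CPM in Control iWAT and at 107, 83.2, 92.9, 113 and 88.2 CPM in Ai-α4KO iWAT. The ranges overlapped, and its log2 fold change of -0.29 was not past the threshold (95% interval -0.60 to 0.02, adjusted p = 0.106 in edgeR). In BAT it was at 8.42, 17.8, 15.2, 24.3 and 16.2 CPM in Control and at 61.1, 36.6, 43.7, 26.6 and 27.6 CPM in Ai-α4KO libraries. The lowest Ai-α4KO library lay just above the highest Control library, and C2 rose by 1.22 in BAT (standard error 0.28, adjusted p = 0.00253 in edgeR), the smallest of the 8 changes past the threshold there.

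Factor B, encoded by Cfb, is the counterpart of C2 in the alternative pathway. Cfb was at 437, 379.8, 386, 229.6 and 298 CPM in Control iWAT and at 853, 804, 922, 892 and 649.7 CPM in Ai-α4KO iWAT. In BAT it was at 19.3, 35.6, 30.7, 56.4 and 25.5 CPM in Control and at 441, 348, 352, 206 and 194 CPM in Ai-α4KO libraries. Neither tissue showed overlap. Cfb rose by 1.25 in iWAT (standard error 0.18, adjusted p = 1.38e-04 in edgeR) and by 3.16 in BAT (standard error 0.32, adjusted p = 4.42e-06). The neighbours on chromosome 17 therefore moved unequally. On the FPKM scale the ratio of C2 to Cfb was 0.359 ± 0.036 in Control against 0.123 ± 0.016 in Ai-α4KO for iWAT, and 0.520 ± 0.086 against 0.133 ± 0.015 for BAT (SD, n = 5 each). The Control and Ai-α4KO ratios did not overlap in either tissue, whereas those of Ai-α4KO iWAT and Ai-α4KO BAT did.

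C3, on which all pathways converge, stayed within the spread of the libraries. It was at 2240.2, 2518, 3162, 1758 and 2407 CPM in Control iWAT and at 2895, 2079, 3158, 3135 and 2244 CPM in Ai-α4KO iWAT. In BAT the values were 1223, 1312, 1428, 1687 and 1803 CPM in Control and 1928, 2397, 1293, 1361 and 1763 CPM in Ai-α4KO libraries. Both pairs of groups overlapped widely. The log2 fold change was 0.16 in iWAT (95% interval -0.23 to 0.54, adjusted p = 0.478 in edgeR) and 0.19 in BAT (95% interval -0.22 to 0.60, adjusted p = 0.396). Without Control libraries 1 and 4 the value in iWAT was -0.079. The exact permutation test of the CPM values, two-sided, gave p = 0.37 in iWAT and p = 0.28 in BAT.

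C3ar1 and C5ar1 encode the G protein-coupled receptors for C3a and C5a, and of the 9 genes they had the largest estimates in both tissues. C3ar1 was at 57.9, 49.0, 42.8, 25.8 and 38.5 CPM in Control iWAT and at 171, 225, 264, 198 and 204 CPM in Ai-α4KO iWAT. In BAT it was at 5.60, 9.93, 6.48, 11.0 and 6.57 CPM in Control and at 170.3, 214, 171, 128 and 219 CPM in Ai-α4KO libraries. The groups were far apart in BAT, where the lowest Ai-α4KO library was at 128 CPM and the highest Control library at 11.0 CPM. C3ar1 rose by 2.31 in iWAT (standard error 0.21, adjusted p = 7.84e-06 in edgeR) and by 4.47 in BAT (standard error 0.23, adjusted p = 5.83e-08), the latter a fold change of 22.2. C5ar1 was at 37.3, 39.7, 31.3, 21.7 and 34.8 CPM in Control and at 117, 136, 156, 114 and 144 CPM in Ai-α4KO iWAT, and rose by 2.01 (standard error 0.16, adjusted p = 4.80e-06 in edgeR). In BAT it was at 5.42, 7.86, 4.85, 7.05 and 5.22 CPM in Control and at 88.9, 118, 92.5, 61.7 and 104 CPM in Ai-α4KO libraries, and rose by 3.90 (standard error 0.20, adjusted p = 5.83e-08). No Control library overlapped an Ai-α4KO library for either receptor. Per length, C3ar1 was at 0.772 ± 0.113 times C5ar1 in Control BAT and 1.17 ± 0.080 times in Ai-α4KO BAT, without overlap, and at 0.771 ± 0.104 and 0.953 ± 0.086 times in iWAT, with overlap (SD, n = 5 each).

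**Figure D3:**
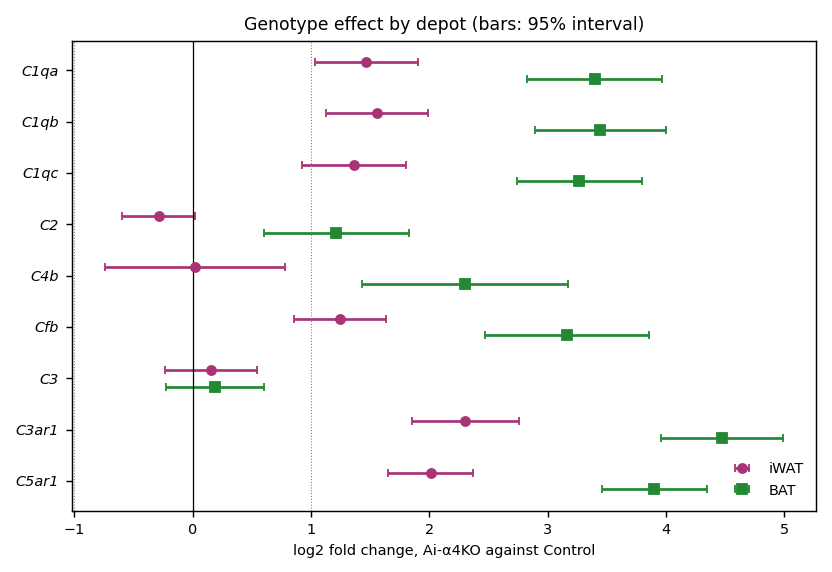
Log2 fold change of each gene in Ai-α4KO against Control libraries, in iWAT (circles) and BAT (squares), with 95% intervals from edgeR and dotted lines at a fold change of 2. The intervals of C2, C4b and C3 in iWAT and of C3 in BAT include 0. For every gene the value in BAT lies to the right of that in iWAT, for C3 only slightly (0.19 against 0.16).

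Whether the effect of genotype differed between the tissues was tested by the interaction term of a model with all 20 libraries. The effect was larger in BAT for 7 of the 9 genes at an adjusted p below 0.01, where the interaction passed for 4.86% of 15230 tested genes. The log2 fold change in BAT exceeded that in iWAT by 2.19 for C3ar1 (standard error 0.30, adjusted p = 2.93e-04 in edgeR), 1.96 for C1qa, 1.95 for Cfb, 1.93 for C1qc, 1.92 for C1qb, 1.92 for C5ar1 and 1.54 for C2 (standard error 0.34, adjusted p = 0.0059). For C4b the difference had the largest estimate, 2.31, with a wider error (standard error 0.57, adjusted p = 0.0118 in edgeR), and was not past the threshold. It passed without Control BAT library 4 (adjusted p = 0.00149), Control iWAT library 4 (0.00889) or Ai-α4KO iWAT library 1 (0.00896). The call of C2 was lost without Control BAT library 3 (adjusted p = 0.0132) or 5 (0.0108). C3 had a difference of 0.07 (95% interval -0.48 to 0.62, adjusted p = 0.882).

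The depots also differed without the deletion. In Control mice 8 of the 9 genes were lower in BAT than in iWAT past both thresholds, where 15.4% of 15230 tested genes were lower, and for these 8 genes no Control BAT library reached a Control iWAT library, as for 19.1% of tested genes. The log2 difference, BAT minus iWAT, was -4.12 for C4b (standard error 0.45), -3.37 for Cfb (0.29) and -2.84 for C2 (0.25), and lay between -2.52 and -2.42 for the C1q chains and both receptors. C3 differed least, by -0.70 (standard error 0.19, adjusted p = 0.00434 in edgeR), under a fold change of 2 and with overlap of the libraries. In Ai-α4KO mice 3 of the 9 genes were lower in BAT past both thresholds, where 4.09% of tested genes were lower. These were C4b (-1.81, standard error 0.41, adjusted p = 0.00184 in edgeR), Cfb (-1.42, standard error 0.27, adjusted p = 4.05e-04) and C2 (-1.31, standard error 0.24, adjusted p = 3.34e-04). The differences of the C1q chains were between -0.56 and -0.49, that of C5ar1 was -0.52 and that of C3ar1 was -0.24, none past the threshold. The 95% interval of C3ar1 was -0.68 to 0.20. The intervals of C1qa (-1.05 to -0.07), C1qb (-1.02 to -0.07), C1qc (-0.96 to -0.03) and C5ar1 (-0.89 to -0.15) held negative values only. C3 differed by -0.63 (95% interval -1.02 to -0.24, adjusted p = 0.0122 in edgeR), also not past the threshold. Both depot contrasts and both genotype contrasts use the same 20 libraries, so they are not independent of each other.

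**Figure D4:**
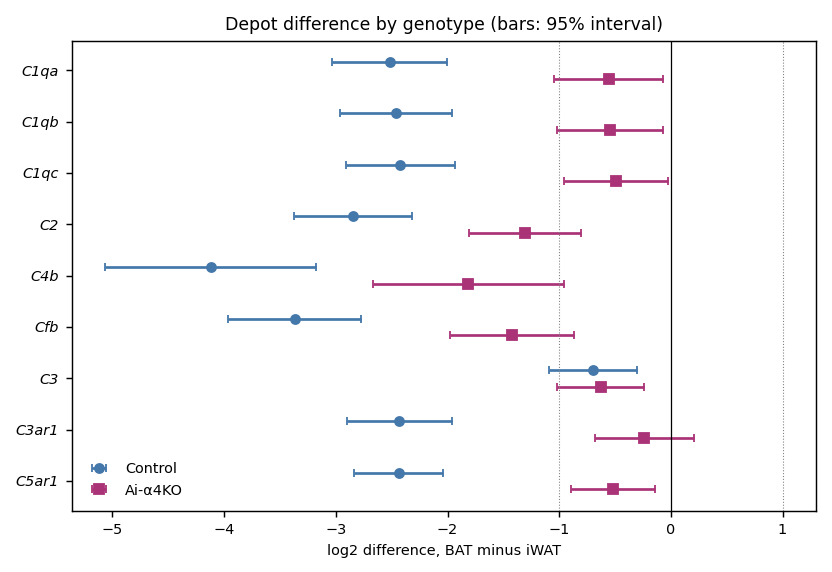
Log2 difference between BAT and iWAT for each gene in Control (circles) and Ai-α4KO (squares) libraries, with 95% intervals from the fit of all 20 libraries and dotted lines at a fold change of 2. The Ai-α4KO values lie nearer to 0 than the Control values for all genes, C3 by 0.07 only.

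The order of the levels per length also differed between the genotypes. C3 was the highest of the 9 genes in both Control groups, at 420 ± 65.7 FPKM in iWAT and 226 ± 43.3 FPKM in BAT (SD, n = 5 each), and did not overlap the next gene, C1qb, in either. In Control iWAT C1qb, C1qa, C4b, C1qc and Cfb followed, each overlapping its neighbour, and then C2 (40.1 FPKM), C5ar1 (11.5 FPKM) and C3ar1 (8.97 FPKM). In Control BAT the C1q chains followed C3 at 27.1 to 37.0 FPKM, then Cfb (9.48 FPKM), C4b (9.22 FPKM) and C2 (4.82 FPKM), with overlap between these neighbours, and both receptors were below 2 FPKM on average. C1qb had the highest mean in both Ai-α4KO groups, 761 ± 118.4 FPKM in iWAT and 488 ± 136 FPKM in BAT (SD, n = 5 each). Its neighbour C1qa overlapped it in both, and C3 at 516 FPKM in iWAT and 313 FPKM in BAT overlapped C1qa and C1qc, respectively. C2 had the lowest mean in both Ai-α4KO groups, at 35.9 FPKM in iWAT and 13.6 FPKM in BAT, with overlap with the next gene in each.

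The rest of the pathway was taken from a list of 45 other complement genes, of which 44 were found in the table. In iWAT 34 of them were tested, 7 rose and 4 fell, where 11.3% of all tested genes rose and 10.7% fell. The number that fell was 7 without Control iWAT libraries 1 and 4, and 2 under limma on log2(FPKM + 1). In BAT 31 were tested, 14 rose and 2 fell, where 18.2% of all tested genes rose and 13.3% fell. Their median log2 fold change was 0.25 in iWAT and 1.37 in BAT. Among the classical proteases C1ra and C1s1, which encode C1r and C1s, rose by 1.57 and 1.17 in BAT, while their log2 fold changes in iWAT, 0.60 and 0.25, were not past the thresholds. C1rb, a copy of C1ra, rose by 1.59 in BAT. Masp1, a protease of the lectin pathway, was the gene of that pathway past the thresholds, with a rise of 1.68 in BAT from a level of 0.67 CPM.

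The genes of proteins that work with factor B moved in opposite directions. Cfd, which encodes factor D, was at 9821, 11485, 16349, 7344 and 9388 CPM in Control and at 3533, 1901, 1144, 1611 and 1333 CPM in Ai-α4KO iWAT. In BAT it was at 3911, 3046, 2995, 5478 and 2379.8 CPM in Control and at 1626, 744, 644, 449 and 364 CPM in Ai-α4KO libraries. No Ai-α4KO library reached the Control range, and on the log2 scale Cfd fell by 2.52 in iWAT (standard error 0.33, adjusted p = 8.33e-05 in edgeR) and by 2.26 in BAT (standard error 0.39, adjusted p = 2.96e-04). Per length, Cfd went from 24.6 ± 2.64 to 3.99 ± 1.91 times the level of C3 in iWAT and from 13.5 ± 4.47 to 2.42 ± 1.38 times in BAT (SD, n = 5 each), without overlap. Cfp, which encodes properdin, the protein that stabilizes the alternative convertase, rose by 2.20 in iWAT (standard error 0.17, adjusted p = 4.23e-06 in edgeR) and by 3.61 in BAT (standard error 0.30, adjusted p = 9.18e-07).

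Among terminal components C6 rose from 23.5 ± 8.19 to 60.8 ± 26.5 CPM in iWAT and from 0.548 ± 0.240 to 15.4 ± 4.01 CPM in BAT (SD, n = 5 each), and C8g fell by 3.45 in iWAT and by 2.18 in BAT. Of the soluble regulators Serping1, which encodes the C1 inhibitor, rose by 1.57 in BAT (adjusted p = 1.39e-05 in edgeR) while its value of 0.65 in iWAT was not past the threshold (adjusted p = 0.0433). Clu, which encodes clusterin, rose from 21.3 ± 5.96 to 469 ± 183 CPM in BAT (SD, n = 5 each), while in iWAT it was at 108 ± 113 and 95.3 ± 35.9 CPM. Cfi, the gene of factor I, rose by 2.24 in iWAT from 0.622 CPM and was too low to be tested in BAT. Of the membrane regulators 0 of 7 rose in either tissue, and Cd46 (-1.30) and Cd59b (-1.27) fell in iWAT, both at levels under 2 CPM.

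Of the other complement receptors 4 of 6 tested rose in iWAT and 5 of 5 in BAT, and 0 fell. Itgam and Itgax, whose products pair with that of Itgb2 to form the complement receptors CR3 and CR4, rose by 2.48 and 3.32 in iWAT and by 4.06 and 4.57 in BAT. Itgb2 rose by 2.21 and 3.50, and C5ar2, a further receptor of C5a, by 1.41 and 3.60 in iWAT and BAT. Vsig4, a receptor for C3 fragments, rose by 2.56 in BAT and its value of 1.40 in iWAT was not past the threshold (adjusted p = 0.0284 in edgeR). The sixth receptor, Cr2, a receptor for C3 fragments on B cells and follicular dendritic cells, is named after its values were seen. It was at 60.5, 0.404, 0.451, 24.4 and 0.586 CPM in Control and at 0.400, 0.159, 0.420, 0.107 and 2.0 CPM in Ai-α4KO iWAT, with a log2 fold change of -4.83 (standard error 1.53) that was not past the threshold (adjusted p = 0.0196 in edgeR). Control libraries 1 and 4 alone were above the Ai-α4KO range, and the summed level of 6 B cell markers was 435 and 168 CPM in them and 5.75 to 13.4 CPM in the other iWAT libraries. Their part in the value of Cr2 was not tested. The interaction of genotype and tissue passed for 7 of the 36 other genes tested in the fit of all libraries (C6, Clu, C5ar2, Itgam, Itgb2, Itgax and Cfp), with a larger log2 fold change in BAT in each, where it passed for 4.86% of all tested genes.

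**Figure D5:**
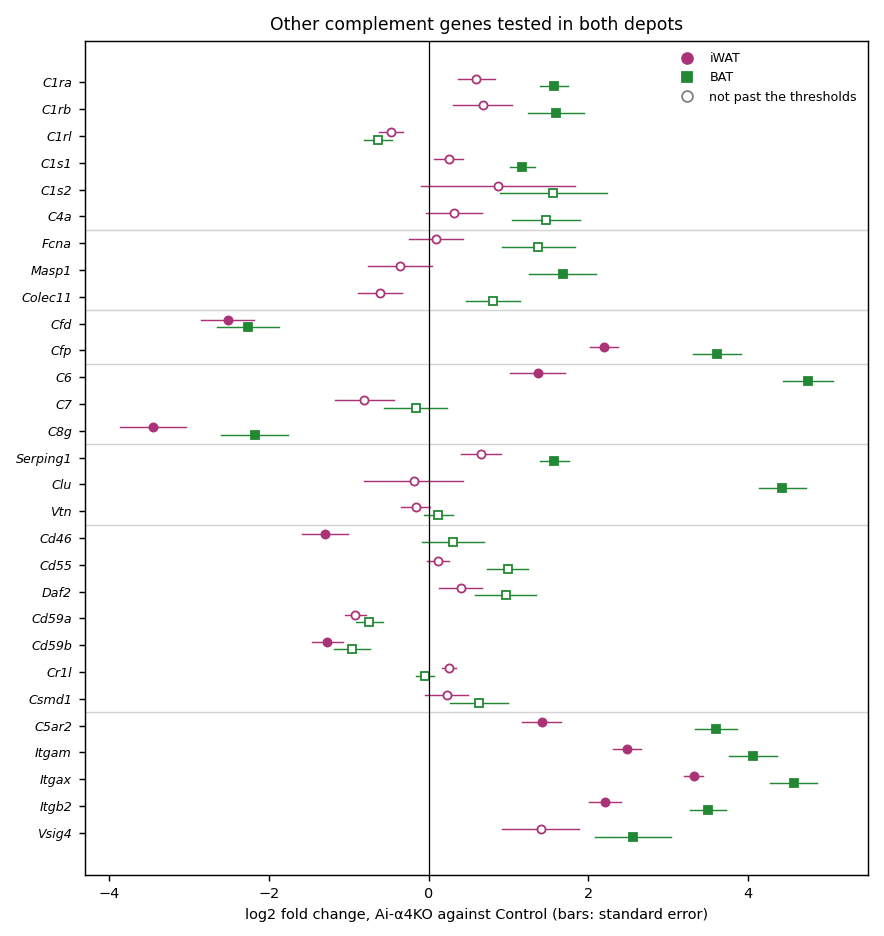
Log2 fold change in Ai-α4KO against Control of 29 of the other complement genes tested in both tissues, grouped by role with grey lines between groups (classical proteases, lectin pathway, alternative pathway, terminal components, soluble regulators, membrane regulators, receptors). Bars are standard errors and open symbols are genes not past the thresholds; the receptors drawn at the bottom (Cr2, tested in iWAT alone, is not drawn) are all to the right of 0, and Cfd and C8g lie to the left in both tissues.

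Markers of macrophages moved with most of these genes. Of 8 macrophage markers 7 rose in iWAT (all except Mertk) and 8 in BAT. Their summed level was 1103 to 1851 CPM in Control and 7020.4 to 9479 CPM in Ai-α4KO iWAT, and 230.5 to 518 CPM and 4131 to 6772 CPM in BAT, with none of the 8 at 0. On average over the 8 markers the log2 CPM was higher by 1.97 in iWAT and by 3.49 in BAT. Set against that average, the C1q chains changed by -0.57 to -0.37 in iWAT and by -0.18 to 0.01 in BAT, with overlap of the libraries. C5ar1 changed by 0.07 and 0.42 relative to the markers in iWAT and BAT, with overlap in both, and C3ar1 by 0.38 with overlap in iWAT and by 1.03 without overlap in BAT. Cfb was lower relative to the markers by 0.69 in iWAT without overlap, and its relative change in BAT was -0.27 with overlap. C2 lay lower relative to the markers by 2.24 and 2.23 and C3 by 1.80 and 3.29 in iWAT and BAT, without overlap, and C4b by 1.96 in iWAT without overlap and by 0.94 in BAT with overlap. The part of macrophage number in these changes was not tested.

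In each group the neutrophil and hepatocyte markers summed to less than the macrophage markers. The 7 neutrophil markers summed to 20.8 to 114 CPM in Control and 145 to 480.1 CPM in Ai-α4KO iWAT, and to 12.1 to 35.2 and 199 to 359 CPM in BAT. Of the 6 that were tested in iWAT 4 rose and 1 fell, and of the 5 tested in BAT 5 rose. The 6 markers of hepatocytes, which secrete much of the complement in blood, summed to at most 128 CPM in any library, and to 0.274 to 9.49 CPM in BAT. Of 8 adipocyte markers, which gave sums above those of the macrophage markers in every group (22598 to 30138 CPM in Control and 11593 to 16388 CPM in Ai-α4KO iWAT, 22514 to 25044 and 12947 to 15462 CPM in BAT), 6 fell in each tissue, and of 5 endothelial markers 3 fell in each. Of 7 skeletal muscle markers 0 were past the thresholds in iWAT and 5 rose in BAT, where their sum was 825 to 8823 CPM in Control and 12137 to 39144 CPM in Ai-α4KO libraries. The 6 adipose stromal cell markers summed to 1327 to 2558 CPM in Control and 1262 to 3325 CPM in Ai-α4KO iWAT, with 0 of 6 past the thresholds, and to 617 to 1022 and 1226 to 1667 CPM in BAT, where 1 of 6 rose. C4b and C2 had no change past the thresholds in iWAT and rose in BAT. The stromal sums overlapped between genotypes in iWAT and did not in BAT, but this was not particular to them. Sums of the skeletal muscle and B cell markers also overlapped in iWAT and not in BAT. In BAT the B cell markers summed to 1.29 to 4.46 CPM in Control and 6.24 to 16.1 CPM in Ai-α4KO libraries. The part of any of these cells in C4b and C2 was not tested.

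Across the 20 libraries the genes fell into patterns described by Pearson's r of log2 CPM, in which the points share tissue and genotype. C3ar1 and C5ar1 had an r of 0.993, and C1qa had an r of 0.973 and 0.983 with them. C2 and C4b were most like each other (0.963) and less like the receptors (0.594 to 0.747). The 8 pairs that include C3 had the range 0.496 to 0.796. Outside the 9 genes, those most like C1qa were Hk3 (0.993), Ncf1 (0.991) and Spi1 (0.990), which encode a hexokinase, a subunit of the phagocyte NADPH oxidase and the myeloid ETS factor PU.1. Those most like Cfb were Clec10a (0.986), a lectin of macrophages and dendritic cells, Bco2 (0.979) and Emilin2 (0.979). C3 was matched less closely, by Ncstn (0.923), Tbc1d5 (0.910) and Pacs2 (0.898).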

How the data were processed

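RNA-seq libraries of iWAT and BAT (5 Control and 5 Ai-α4KO each) were made with a stranded mRNA kit and read as pairs of 150 bases. The submitters' processing notes name bcl2fastq 2, STAR 2.5.3a and the mm10 build, while the counting tool and annotation release are not given in the sources used here. The authors deposited an expected count per gene and library, without normalization, of which 76.6% of the nonzero values are exactly whole as deposited, with no tolerance. The authors also deposited FPKM values, which are per length and were used to compare levels between genes. By the same rule 8 of the 9 genes had fractional counts in some library, so shared reads were divided by an estimate.

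The expected counts were rounded to whole numbers and tested with edgeR 4.0.16 under R 4.3.3 (filterByExpr, TMM, quasi-likelihood test, Benjamini-Hochberg adjustment over all genes tested), within each tissue for genotype and over all 20 libraries for interaction and depot. CPM and log2 CPM (prior count 2) come from all 20 libraries. The exact permutation tests of CPM ran over 252 arrangements, whose smallest p is 0.0079. Depth was 24023309 to 50384427 counts per library, and the lowest count of a member was 107. The methods were tested on simulated data.

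The genes, lists and ratios were chosen with earlier results of these data known. All 9 genes are named, with Igbp1, Cfd, Serping1, other complement genes past both thresholds and the 3 genes most like C1qa, C3 and Cfb. C1ra, C1s1, C1rb, Masp1 and Vsig4 are among those past the thresholds, and Mertk and Cr2 were named after their values were seen. The values of 1 further listed gene are not reported or drawn here. Alternatives were DESeq2 1.42.0, other scalings, filters and thresholds, limma 3.58.1 on log2(FPKM + 1) and log2(FPKM + 0.1), a replicate block, 1 fit of all libraries, the C4 copies added and libraries left out. Leaving out the pair of iWAT libraries high in muscle markers was added after the data were seen.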

Additional observations from a re-analysis of the deposited data

Results flagged for a closer look

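For 7 of the 9 genes the log2 fold change of Ai-α4KO against Control differed between BAT and iWAT by the interaction test in edgeR (adjusted p below 0.01, passed by 4.86% of all genes tested), and the values were 1.96 for C1qa, 1.92 for C1qb, 1.93 for C1qc, 1.54 for C2, 1.95 for Cfb, 2.19 for C3ar1 and 1.92 for C5ar1. Each is larger in BAT. By Dixon's test at the 95% level, 1 of the 36 combinations of gene and group held a library apart from the rest of its group on the log2 CPM scale, and 0 of 36 did on the CPM scale, where chance gives about 1 in 20. C4b was at a log2 CPM of 8.75 in Ai-α4KO iWAT library 2, the lowest of its group. Without that library the log2 fold change of C4b in iWAT was 0.24 (adjusted p = 0.498 in edgeR) and its difference between tissues 2.20 (adjusted p = 0.0132), neither past the threshold.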

How the results depend on the processing

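Leaving out 1 library at a time, the number of complement genes that rose was 6 to 6 in iWAT and 8 to 8 in BAT, the number with a different effect between tissues was 6 to 8, and the numbers that differed between depots were 8 to 8 in Control and 3 to 3 in Ai-α4KO mice. Of the other complement genes 6 to 8 rose and 4 to 6 fell in iWAT, and 14 to 18 rose and 2 to 3 fell in BAT. The number of other complement genes that fell in iWAT, 4, became 7 without Control libraries 1 and 4 and 2 under limma on log2(FPKM + 1), and the cause was not tested. C4b in iWAT, with no change past the threshold in any setting, had a log2 fold change of -0.091 without Control libraries 1 and 4, -0.22 without Control library 4 and Ai-α4KO library 1, -0.00127 under DESeq2, -0.073 under upper-quartile normalization, and -0.15 to 0.24 with each library left out, where it was -0.15, -0.069, -0.047 and -0.11 without Control library 4 or 5 or Ai-α4KO library 1 or 4. C3 in iWAT was at -0.079 without Control libraries 1 and 4, and its difference between tissues was -0.047 to 0.26 with each library left out, the lowest without Control iWAT library 3. Without TMM factors the median log2 fold change of all genes was 0.13 in iWAT and 0.23 in BAT, beside 0.28 and 0.47 for C3. The call of the interaction of C4b was gained in 10 settings.

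Same-numbered libraries did not deviate together (Pearson's r of -0.451 to 0.244 over the pairs of groups), so the numbers were not taken to pair the libraries. With the replicate number as a block, 4 of the 9 genes kept an interaction past the threshold, against 7 without it. Under the block C1qb (adjusted p = 0.0107 in edgeR), Cfb (0.0112) and C2 (0.0233) were no longer past it, nor was C2 in BAT (adjusted p = 0.0144). The block changed no other call of the 9 genes.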
